A study of Homo sapiens with 12 samples.

Results

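The genes described here are 8 listed symbols: GYPB, GYPC, RHAG, EPB41, EPB42, ANK1 and SPTB, which encode proteins of the red-cell membrane and its skeleton, and TMCC2. Each gene was found by its symbol among the gene names of the expression table. Where a symbol named several loci, the locus with the highest mean level over the 12 libraries was taken. Of the 8 symbols, 7 gave a locus, and all 7 passed the filter on low values, out of 38272 loci in the table and 32866 tested. EPB42 was not analysed here.

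RNA was sequenced from K562, an established chronic myeloid leukaemia line that carries erythroid features, grown in RPMI with 10% FCS. The 4 groups of 3 libraries, labelled biological replicates, all received a transfection. The control group got the control siRNA and control GapmeR (SiCt and GapCt, the mock transfection) and no TNF. The SG group got Si623 and Gap01, the siRNA and GapmeR aimed at the long non-coding RNA (lncRNA) that the series title names. The TNF group was the mock transfection with tumour necrosis factor alpha (20 ng/mL, 6 hours). The TNFSG group combined Si623 and Gap01 with that TNF treatment. A GapmeR is a chemically modified antisense oligonucleotide through which RNase H cuts the matching RNA. No untransfected cells entered the comparisons. All libraries come from 1 cell line, and nothing in the labels says how separate the cultures were, so p-values measure the spread between these libraries only. The questions asked here were whether TNF, the targeted transfection or both together moved the RNA of these genes.

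As background, the red-cell membrane is held in shape by a mesh of spectrin, a long flexible protein whose beta chain is made from SPTB. Ankyrin (ANK1), aided by protein 4.2 (EPB42), ties beta spectrin to band 3 and the Rh complex, while protein 4.1 (EPB41) ties spectrin and actin to glycophorin C (GYPC). Inherited defects of ankyrin, spectrin or protein 4.2 are known causes of spherocytosis, and defects of protein 4.1 of elliptocytosis. TMCC2 encodes a transmembrane protein with coiled coils whose RNA is known to be abundant in maturing erythroid cells.

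Values are FPKM, fragment counts scaled by locus length and by library size, given as mean ± SD with n = 3 per group unless a library is named. Differences are log2 changes of FPKM + 1 from limma, with the standard error (SE), and a locus was called when its p-value adjusted over all 32866 tested loci was under 0.05. Read totals are not known, and the relative depths read from the steps of low values lay between 0.879 and 1.35. The locus named MIR146A lies where the title's lncRNA name, read as PTTG1, would place the target, and this reading is not certain. It stood at 0.159 to 0.569 FPKM in the control libraries and 0 to 0.063 in SG, and at 21.2 to 28.1 in TNF and 4.03 to 7.77 in TNFSG, so the libraries of the targeted transfection were the lower ones in both settings. All 8 of 8 TNF-responsive control genes rose in both TNF comparisons, with ICAM1 at 15.1 ± 0.55 FPKM in control and 339 ± 13 in TNF. The summed level of 9 erythroid markers, among them globins, GATA1, TAL1, KLF1 and TFRC, was 2046 to 5196 FPKM per library. HBG2 and HBE1 share 1 locus, so the sum covers 8 loci, and that shared locus alone gave 1378 to 3414 FPKM. The 3 megakaryocyte markers analysed of 7 listed summed to 1.46 to 8.91. Sums were 10.0 to 45.3 for 3 of 7 myeloid markers, 16.0 to 267 for 4 of 6 lymphoid markers and 164 to 240 for 4 of 5 epithelial markers. The lymphoid maximum was in SG replicate 3, where NKG7 alone stood at 235 FPKM. NKG7 had a median of 0 over the libraries and did not pass the filter. Most of the epithelial sum was KRT19, at 100 to 176 FPKM, and EPCAM, at 48.9 to 64.5.

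Replicate 1 stood apart for these genes before any comparison was made. It was the lowest library of its group in 4 of 4 groups for GYPB, GYPC, RHAG and SPTB, in 3 of 4 for EPB41 and ANK1, and in 1 of 4 for TMCC2. For GYPB the replicate 1 libraries lay at 62.3 to 87.7 FPKM and the others at 97.7 to 154, with no overlap. The same held for GYPC, at 120 to 161 against 163 to 211, and for RHAG, at 147 to 180 against 195 to 226. The fits were therefore repeated without replicate 1 in every group, an alternative chosen after seeing the data, and those values stand beside the results they touch.

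TMCC2 was the 1 gene of the 7 that changed in a pairwise comparison, and it rose with TNF after both transfections. None of the 7 passed the threshold for the targeted transfection. TMCC2 and EPB41 were higher in every SG library than in every control library, where 14.9% of all tested loci had no overlap in either direction. The share of all tested loci called was 1.45% for TNF against control (387 rose and 91 fell), where 1 of the 7 genes was called. It was 1.64% for TNFSG against SG, again with 1 of 7. It was 0.17% for SG against control (18 rose and 38 fell) and 0.128% for TNFSG against TNF (19 and 23), with 0 of 7 in each. The unadjusted p was under 0.05 for 1 of 7, TMCC2, in each of these 2, beside 9.86% and 9.11% of all tested loci. After quantile normalization those splits became 13 and 49, and 17 and 46. The interaction, which asks whether the TNF change differed between the transfections, called 0.00913% of loci and 0 of 7 genes. At an unadjusted p under 0.05 it had 0 of 7, beside 3.75% of all tested loci.

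Both averages of the effects use all 12 libraries. The mean TNF effect, averaged over both transfections, called 4.38% of loci and 1 of the 7, TMCC2. An unadjusted p under 0.05 was reached by 2 of 7, TMCC2 and ANK1, beside 15.9% of all tested loci. The mean effect of the targeted transfection (mean SG effect), averaged with and without TNF, called 1.11% of loci (195 rose and 170 fell) and 0 of the 7. There 2 of 7, TMCC2 and EPB41, had an unadjusted p under 0.05, beside 14.6% of all tested loci. The split of that average depended on scaling, at 86 rising and 351 falling after quantile normalization and 133 and 300 after median-ratio scaling, and the median change of all loci moved from 0.09 to -0.02 under quantile normalization. Over the 7 genes the median was 0.06 for the mean SG effect and 0.01 for the mean TNF effect, beside medians of 0.09 and -0.03 over all tested loci.

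**Figure D1:**
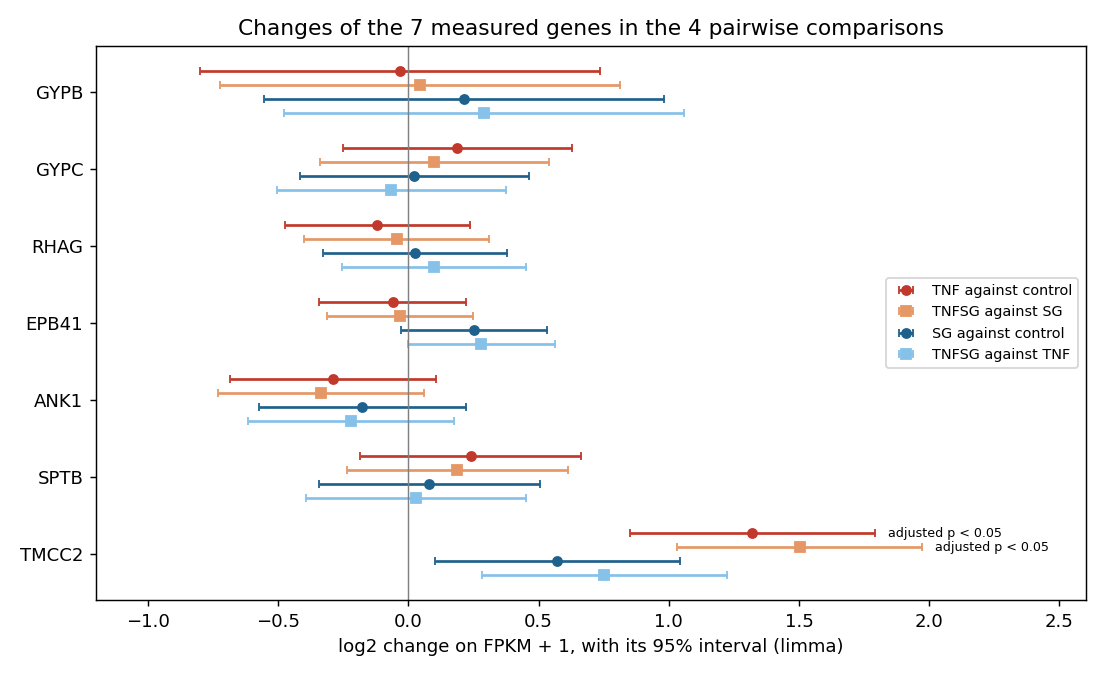
Log2 change of FPKM + 1 (x axis) for each of the 7 genes (rows) in the 4 pairwise comparisons, as points with 95% intervals from limma that are not adjusted for the number of loci. Only the TNF changes of TMCC2, 1.32 and 1.5, carry an adjusted p under 0.05; the GYPB intervals are the widest and all include 0.

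TMCC2 (locus XLOC_000774) was measured at 2.23, 2.17 and 1.70 FPKM in control replicates 1, 2 and 3. The TNF libraries stood at 10.0, 5.81 and 4.75. Every TNF library was above every control library, and TNF replicate 1 was the highest of its group by a wide margin. The group means were 2.04 ± 0.29 in control and 6.86 ± 2.79 in TNF. The log2 change was 1.32 (SE 0.21, 95% interval 0.85 to 1.79; limma adjusted p = 0.0129), a factor of 2.50 on FPKM + 1. In bulk RNA, more RNA per cell and more cells that carry it cannot be told apart. Leaving out control replicate 2 (limma adjusted p = 0.0500244) or control replicate 3 (0.0656) ended the call. It was also lost with only the TNF and control groups in the fit (0.22) and without replicate 1 in every group, where the change was 1.10 (0.0665).

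The same gene rose more evenly after the targeted transfection. TMCC2 lay at 3.75, 3.46 and 3.28 FPKM in SG replicates 1 to 3 and at 11.4, 12 and 11.8 in TNFSG. The groups did not overlap, and the TNFSG libraries differed little from one another. Means were 3.5 ± 0.24 and 11.7 ± 0.29, and the log2 change was 1.5 (SE 0.21, 95% interval 1.03 to 1.97; limma adjusted p = 0.00602). This call held in all 12 fits that left out 1 library, and without replicate 1 in every group the change was 1.56 (limma adjusted p = 0.0245). The mean TNF effect was 1.41 (SE 0.15, 95% interval 1.08 to 1.74; limma adjusted p = 0.000517), a factor of 2.66, and it too held in all 12. It was 1.33 without replicate 1 in every group (limma adjusted p = 0.00788). TMCC2 was already known to rise with TNF in these data when it was chosen, so these tests do not stand as independent evidence.

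The targeted transfection left TMCC2 higher in both settings without passing the threshold. SG against control differed by 0.57 (SE 0.21; limma adjusted p = 0.404), and TNFSG against TNF by 0.75 (SE 0.21; limma adjusted p = 0.297), with no overlap of library values in either. Averaged over both, the difference was 0.66 (SE 0.15, 95% interval 0.33 to 0.99; limma adjusted p = 0.0742). The limma adjusted p fell under the threshold without TNF replicate 1 (0.0085, with a difference of 0.80), and with a filter of 5 FPKM (0.0429). It also did so with the replicate number as a block. After quantile normalization the difference was 0.52 (limma adjusted p = 0.146). The interaction for TMCC2 was 0.18 (SE 0.30, 95% interval -0.48 to 0.85; limma adjusted p = 1), so a difference of the TNF change between transfections was not detectable at this spread.

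Fibroblast markers moved the same way as TMCC2 in part. The summed level of the 3 analysed of 5 listed (COL1A1, COL1A2 and DCN) was 23.9 to 56.3 FPKM in control, 55.1 to 1178 in TNF, 21.3 to 45.3 in SG and 65.2 to 444 in TNFSG. None of the 3 was called in any comparison, and COL1A2 alone ranged from 0 to 1098 FPKM between libraries. Of the 3 megakaryocyte markers, GP1BA, a platelet glycoprotein, was called in the mean TNF effect, at 0.68 (SE 0.13; limma adjusted p = 0.0183). It stood at 0.61, 0.63 and 0.40 FPKM in control and 1.73, 1.33 and 1.26 in TNF, and at 0.62, 0.85 and 0.75 in SG and 2.52, 1.34 and 1.74 in TNFSG. Every TNF-treated library was above every untreated one. The change was 1.23 with a pseudocount of 0.1, and the limma adjusted p was 0.0501 without control replicate 3 and 0.162 without replicate 1 in every group. ITGA2B and ITGB3 were not called. In the mean TNF effect only 1 of the 3 megakaryocyte markers, GP1BA, lay above 0, and their median was -0.01. The part of these markers in the TMCC2 result was not tested.

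**Figure D2:**
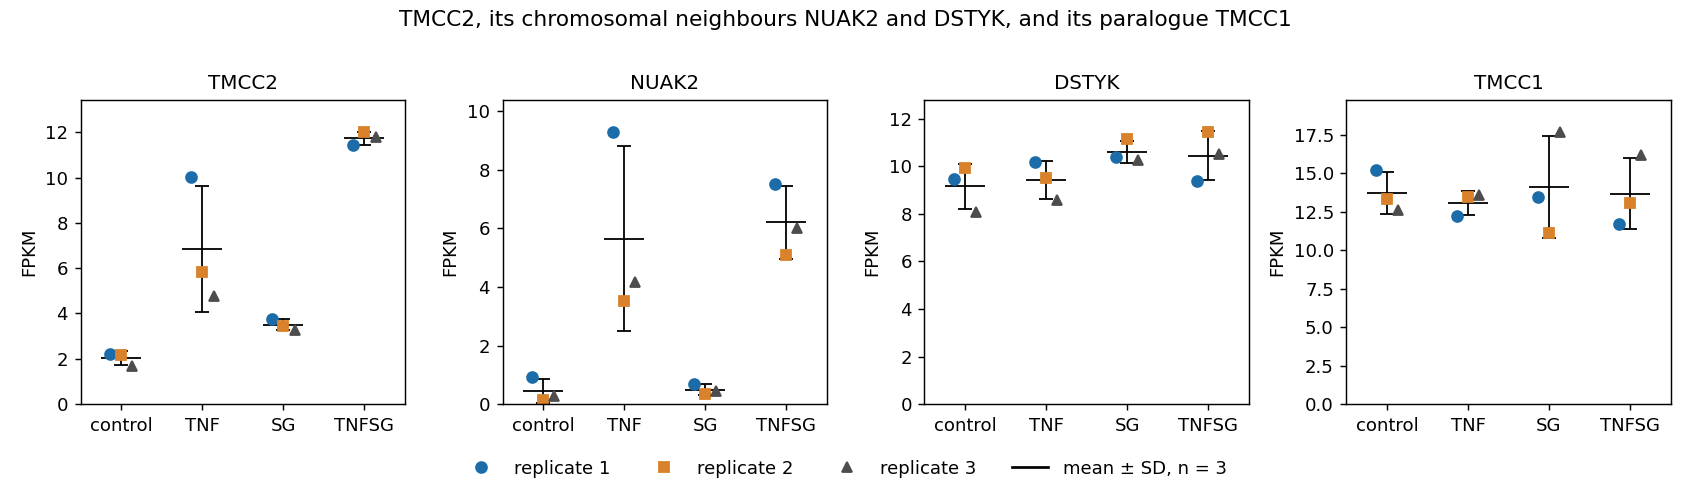
FPKM (y axis) of TMCC2, its chromosomal neighbours NUAK2 and DSTYK, and its paralogue TMCC1 in the 4 groups (x axis); each symbol is 1 library, and the lines show mean ± SD with n = 3. TMCC2 and NUAK2 are higher in TNF and TNFSG, with TNF replicate 1 at 10.0 and 9.28 FPKM, while DSTYK stays between 8.10 and 11.4 FPKM.

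The annotation (GENCODE 29, hg38) places TMCC2 on the plus strand of chromosome 1, from 205228176 to 205285632, with 10 transcripts and 8 start positions. An antisense gene, AC093422.2, overlaps it, and whether the deposited values use strand is not given in the sources used here, so reads of the pair cannot be told apart. Windows of 250 bases before and 10 bases from a RefSeq transcript start (GRCh38.p14) were searched on both strands for the kappa-B consensus, for AGATAA or TGATAA (the letters of GATA factor sites) and for TGACTCA or TGAGTCA (those of AP-1). Over 35116 such windows of the genome, 10.2% held the kappa-B consensus, 15% the GATA letters and 4.44% the AP-1 letters. The kappa-B consensus was found in 0 of the 6 TMCC2 windows, the AP-1 letters in 1 and the GATA letters in 1; both windows with a match are shown because TMCC2 is the gene that rose. They lie inside the annotated gene, at internal starts, and capitals mark the match. Positions count from the start base as 0, so the AP-1 match begins at -245 and the GATA match, read on the opposite strand, at -95. A match describes the letters only.
TMCC2, start at 205246496, plus strand, GRCh38.p14 chr1:205246246-205246505: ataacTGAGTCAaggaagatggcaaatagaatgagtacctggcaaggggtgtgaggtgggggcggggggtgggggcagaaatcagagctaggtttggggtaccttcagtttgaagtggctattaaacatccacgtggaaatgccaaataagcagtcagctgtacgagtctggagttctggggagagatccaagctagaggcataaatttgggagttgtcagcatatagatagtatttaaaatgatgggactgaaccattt
TMCC2, start at 205256202, plus strand, GRCh38.p14 chr1:205255952-205256211: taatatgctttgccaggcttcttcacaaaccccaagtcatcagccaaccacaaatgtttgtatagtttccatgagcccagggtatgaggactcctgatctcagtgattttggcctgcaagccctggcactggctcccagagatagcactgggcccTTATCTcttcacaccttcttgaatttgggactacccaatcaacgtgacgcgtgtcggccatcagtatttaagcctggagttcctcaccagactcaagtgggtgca

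The genes around TMCC2 were examined from a list of 10, of which 8 were analysed. TNF against control, TNFSG against SG and the mean TNF effect each called 1 of the 8, which rose. The shares of all tested loci called were 1.45%, 1.64% and 4.38%. The gene that rose was NUAK2, a kinase of the AMPK-related family, at 205302059 to 205321791 on the minus strand. Its 3 prime end faces that of TMCC2 across 16.4 kb. NUAK2 stood at 0.93, 0.16 and 0.27 FPKM in control and at 9.28, 3.51 and 4.16 in TNF. In SG it stood at 0.70, 0.33 and 0.44, and in TNFSG at 7.52, 5.07 and 6.02. As for TMCC2, replicate 1 was the highest TNF library, and no TNF-treated library overlapped an untreated one. The log2 change was 2.13 in TNF against control (limma adjusted p = 0.0100), a call lost without control replicate 2 or 3 and with only those groups in the fit. It was 2.27 in TNFSG against SG (limma adjusted p = 0.00679), and the mean TNF effect was 2.2 (SE 0.23; limma adjusted p = 0.000487). At such low untreated levels the size depends on the pseudocount: with 0.1 in place of 1 the 3 values were 3.51, 3.45 and 3.48, and each stayed called.

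On the other side, DSTYK, a kinase gene whose 5 prime end lies 16.6 kb from that of TMCC2, averaged 9.17 FPKM in control and 9.44 in TNF, and 10.6 in SG and 10.5 in TNFSG. Its mean TNF effect was 0.01 (SE 0.07; limma adjusted p = 0.975). RBBP5, a subunit of histone methyltransferase complexes, had a mean TNF effect of -0.10 (SE 0.08), KLHDC8A of 0.09 (SE 0.18), LEMD1 of -0.14 (SE 0.18), NFASC of 0.23 (SE 0.21) and ELK4 of 0.07 (SE 0.07). None of these was called. CDK18 differed by 1.09 with an SE of 1.45, since single libraries ranged from 0 to 198 FPKM. CNTN2 and TMEM81 were not analysed here.

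**Figure D3:**
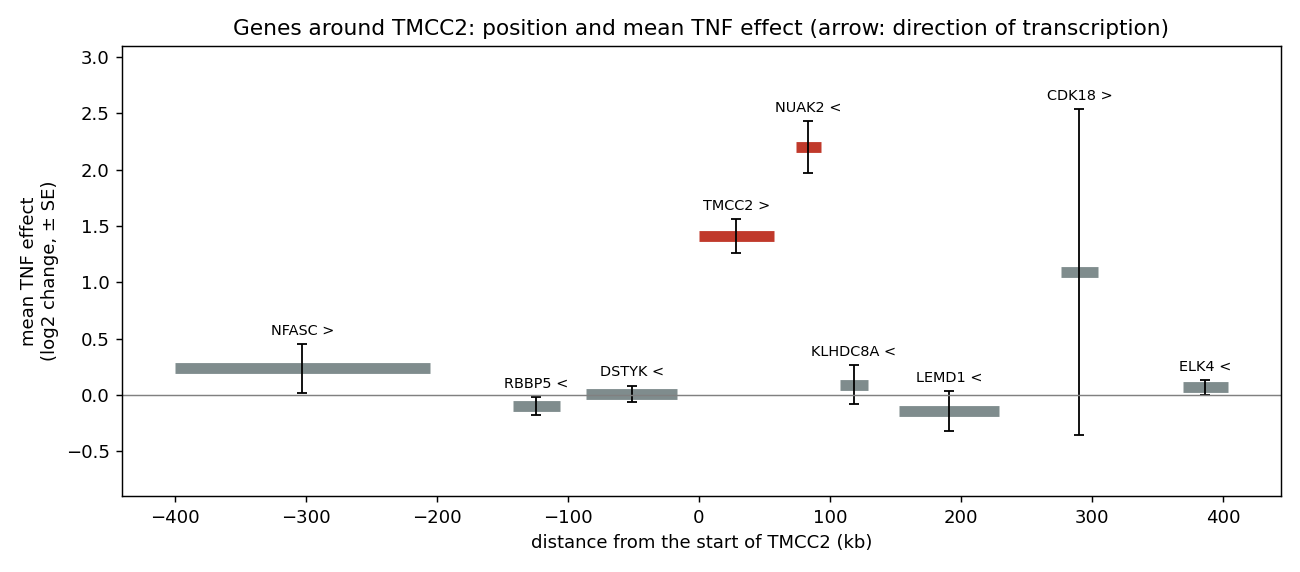
Mean TNF effect (log2 change of FPKM + 1, y axis, with SE) of the genes around TMCC2, drawn at their distance in kb from the start of TMCC2 (x axis); bar length is gene length and arrows give the direction of transcription. TMCC2 at 1.41 and NUAK2 at 2.2, in red, were called; the wide bar of CDK18 spans an SE of 1.45.

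The paralogues of TMCC2 were not called. TMCC1 averaged 13.7 FPKM in control and 13.1 in TNF, and 14.1 in SG and 13.7 in TNFSG, with a mean TNF effect of -0.05 (SE 0.12; limma adjusted p = 0.902). TMCC3 lay at 1.61 ± 1.58 FPKM in control, 2.61 ± 1.35 with TNF, 3.12 ± 0.45 in SG and 7.11 ± 3.59 in TNFSG. Its mean TNF effect was 0.73 (SE 0.33; limma adjusted p = 0.314) and its mean SG effect 0.98 (SE 0.33; limma adjusted p = 0.206).

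Among the integral membrane proteins, RHAG, the Rh-associated glycoprotein that the Rh antigens need to reach the surface, was the most abundant of the 7 genes per length. Its libraries stood at 172, 208 and 217 FPKM in control and 147, 195 and 213 in TNF. In SG they stood at 180, 201 and 226, and in TNFSG at 171, 205 and 214. All 4 groups overlapped, with replicate 1 lowest in each. The mean TNF effect was -0.08 (SE 0.11, 95% interval -0.33 to 0.17; limma adjusted p = 0.8) and the mean SG effect 0.06 (SE 0.11, 95% interval -0.19 to 0.31; limma adjusted p = 0.851). RHAG lies on the minus strand of chromosome 6 from 49605158 to 49636884.

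GYPC encodes glycophorins C and D, the membrane anchors of protein 4.1, on the plus strand of chromosome 2 from 126655933 to 126696670. It was measured at 120, 191 and 184 FPKM in control and 146, 211 and 202 in TNF. The SG libraries gave 147, 163 and 185, and the TNFSG libraries 161, 188 and 179. Values overlapped between all groups. Its mean TNF effect was 0.14 (SE 0.14, 95% interval -0.17 to 0.46; limma adjusted p = 0.701), and the mean SG effect was -0.02 (SE 0.14, 95% interval -0.33 to 0.29; limma adjusted p = 0.967).

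GYPB encodes glycophorin B, the carrier of the S and s blood group antigens. Its libraries stood at 75.9, 97.7 and 125 FPKM in control and 62.3, 116 and 120 in TNF. In SG they stood at 74.9, 126 and 154, and in TNFSG at 87.7, 127 and 144. Within a group the replicates spread widely, and no pair of groups separated. For GYPB the mean TNF effect was 0.01 (SE 0.24, 95% interval -0.54 to 0.55; limma adjusted p = 0.996), and the mean SG effect was 0.25 (SE 0.24, 95% interval -0.29 to 0.79; limma adjusted p = 0.693). That value ran from 0.099 without TNF replicate 1 to 0.40 without SG replicate 1 when single libraries were left out. With the replicate number added to the fit as a block, the pairwise SE of GYPB fell from 0.34 to 0.10. The change was then 0.21 in SG against control (limma adjusted p = 0.436) and 0.29 in TNFSG against TNF (limma adjusted p = 0.322), neither called. GYPB and GYPE are near-identical copies, and short reads may be split between them, so their separate levels are uncertain. GYPE averaged 59.1 FPKM in control and 45.4 in TNF, and 66.5 in SG and 48.4 in TNFSG. It was not called, with a mean TNF effect of -0.44 (SE 0.19).

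GYPB lies on the minus strand of chromosome 4 from 143996104 to 144019345 and is overlapped on the other strand by AC139713.2. The GATA letters occurred in 2 of 2 GYPB windows, which share the same match, and in the 1 RHAG window, from -31 on the opposite strand. None of the 3 motifs occurred in the 1 GYPC window or the 2 EPB41 windows. The GYPB window is shown for the position of its match, which begins at -4 and runs across the start base.
GYPB, start at 144019380, minus strand, GRCh38.p14 chr4:144019371-144019630: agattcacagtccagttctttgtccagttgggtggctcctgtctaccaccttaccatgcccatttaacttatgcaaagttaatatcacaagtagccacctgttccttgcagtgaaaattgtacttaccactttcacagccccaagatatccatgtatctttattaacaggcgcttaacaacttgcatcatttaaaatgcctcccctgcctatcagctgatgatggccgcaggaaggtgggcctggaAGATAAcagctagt

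**Figure D4:**
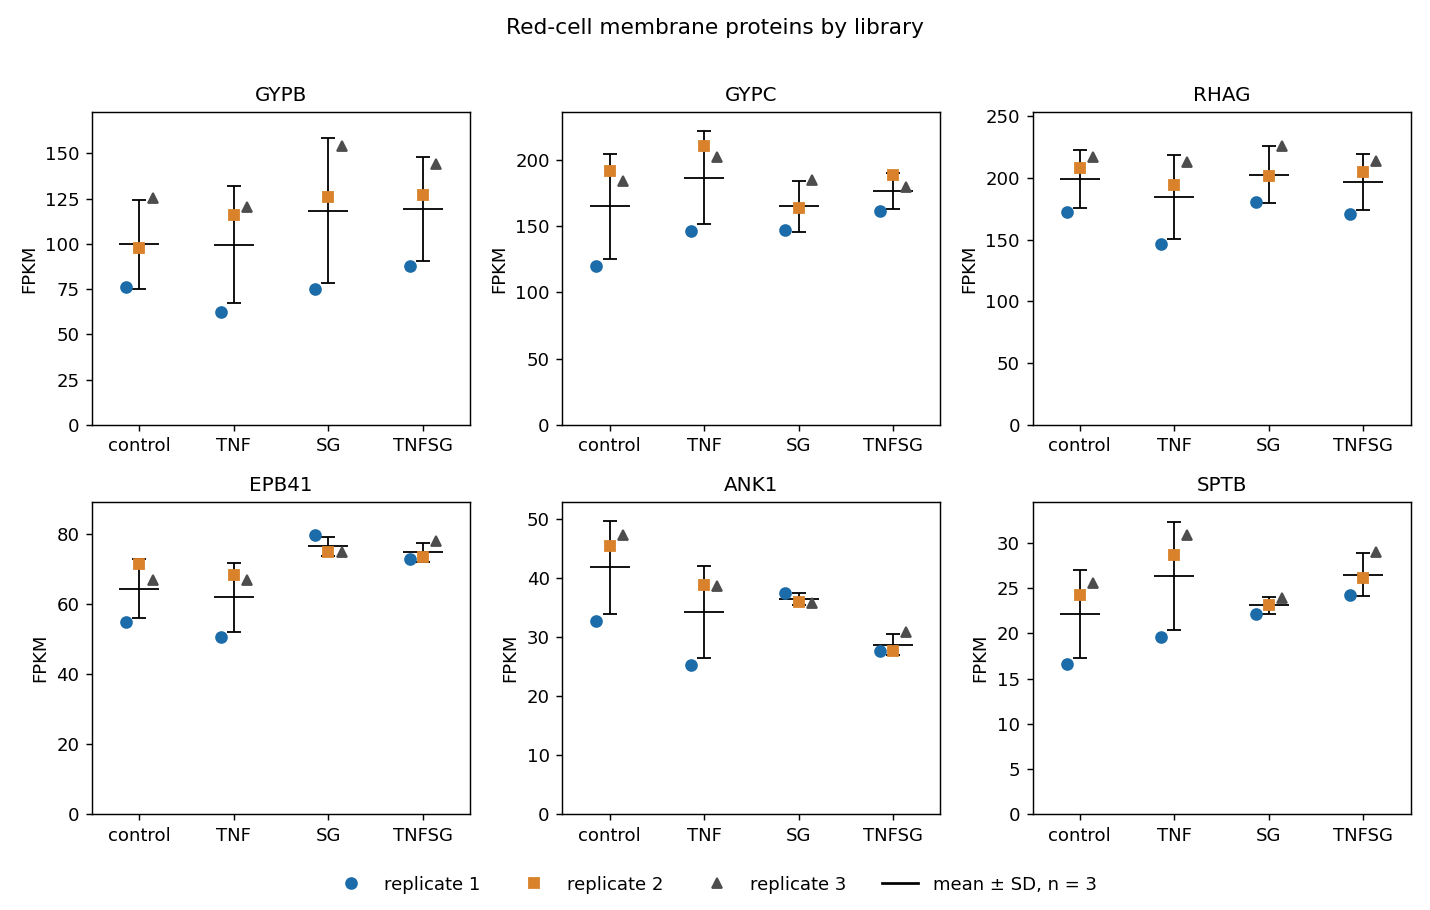
FPKM (y axis) of the 6 red-cell membrane genes in the 4 groups (x axis); each symbol is 1 library, and the lines show mean ± SD with n = 3. Replicate 1 (circles) is the lowest library in every group for GYPB, GYPC, RHAG and SPTB, and EPB41 is higher in the SG and TNFSG libraries, at 73.0 to 79.8 FPKM, than in the control and TNF libraries, at 50.5 to 71.4.

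EPB41, the protein 4.1 gene, was the membrane gene with the most even difference under the targeted transfection. It was measured at 55.0, 71.4 and 66.9 FPKM in control and 50.5, 68.3 and 67.0 in TNF. The SG libraries gave 79.8, 74.9 and 75.0, and the TNFSG libraries 73.0, 73.5 and 78.0. Every library with the targeted transfection was above every mock-transfected one. The difference was 0.25 in SG against control (SE 0.13; limma adjusted p = 0.553) and 0.28 in TNFSG against TNF (SE 0.13; limma adjusted p = 0.547). The mean SG effect was 0.27 (SE 0.09, 95% interval 0.07 to 0.47), with an unadjusted p of 0.0139 and a limma adjusted p of 0.205, so it did not pass. It was 0.20 after quantile normalization (limma adjusted p = 0.376) and 0.14 without replicate 1 in every group (limma adjusted p = 0.243), beside a median of 0.09 over all loci with every library in the fit. TNF left no detectable difference, at -0.05 (SE 0.09, 95% interval -0.25 to 0.15; limma adjusted p = 0.863). EPB41 lies on the plus strand of chromosome 1 from 28887091 to 29120046, and TMEM200B overlaps it on the other strand.

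SPTB encodes the beta chain of erythrocyte spectrin, on the minus strand of chromosome 14 from 64746283 to 64879907, where PLEKHG3 overlaps it on the other strand. It stood at 16.6, 24.2 and 25.6 FPKM in control and 19.5, 28.6 and 30.9 in TNF, and these groups overlapped. The SG libraries gave 22.2, 23.2 and 24.0, and the TNFSG libraries 24.3, 26.2 and 29.1, just above them with no overlap. SPTB had a mean TNF effect of 0.21 (SE 0.13, 95% interval -0.09 to 0.51; limma adjusted p = 0.509). It was 0.23 without replicate 1 in every group (SE 0.06; limma adjusted p = 0.143). The mean SG effect was 0.05 (SE 0.13; limma adjusted p = 0.894).

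Both SPTB windows held the kappa-B consensus, at -57 on the opposite strand in the first and at -86 in the second, and the first also held the GATA letters at -42. The 14 windows searched came from 6 of the 7 analysed genes, since ANK1 was not searched. The first SPTB window is shown because it is the one of the 14 in which these 2 matches lie side by side. Capitals mark the kappa-B match and then the GATA match. SPTB did not pass the threshold in any comparison, and no binding was measured.
SPTB, start at 64879907, minus strand, GRCh38.p14 chr14:64879898-64880157: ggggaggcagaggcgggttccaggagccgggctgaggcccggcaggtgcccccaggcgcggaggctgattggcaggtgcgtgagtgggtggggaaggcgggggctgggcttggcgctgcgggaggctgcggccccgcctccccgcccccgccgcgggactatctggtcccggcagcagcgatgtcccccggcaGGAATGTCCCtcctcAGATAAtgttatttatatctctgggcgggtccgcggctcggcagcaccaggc

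ANK1 encodes erythroid ankyrin, the adaptor between spectrin and the integral proteins. Its main locus was 1 of 6 with that symbol, and the other 5 reached at most 9.92 FPKM in a library. The control libraries stood at 32.7, 45.4 and 47.3 FPKM and the TNF libraries at 25.2, 38.8 and 38.6, and these groups overlapped. The SG libraries gave 37.5, 35.9 and 35.9, and the TNFSG libraries 27.6, 27.7 and 30.8, all lower and without overlap. The change was -0.29 in TNF against control (SE 0.18; limma adjusted p = 0.637), with -0.091 when TNF replicate 1 was left out and -0.45 when control replicate 1 was, and it was -0.33 in TNFSG against SG (SE 0.18; limma adjusted p = 0.536). Their average was -0.31 (SE 0.12, 95% interval -0.59 to -0.03), with an unadjusted p of 0.0325 and a limma adjusted p of 0.250. Without replicate 1 in every group it was -0.27 (SE 0.05; limma adjusted p = 0.0733). The mean SG effect was -0.20 (SE 0.12; limma adjusted p = 0.520), and -0.38 without replicate 1 in every group (limma adjusted p = 0.0567). ANK1 hosts small RNA genes, including MIR486-1, within its span.

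Counting separation alone, 1 of the 7 genes had no overlap between TNF and control (TMCC2 higher), where 15.6% of all tested loci had none. In SG against control it was 2 of 7 (TMCC2 and EPB41, both higher) beside 14.9%. In TNFSG against TNF it was the same 2 of 7, both higher, beside 14.8%. In TNFSG against SG it was 3 of 7 (TMCC2 and SPTB higher, ANK1 lower) beside 18.2%. These counts are small, and nothing is read from them about the genes as a group.

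In order of level per length, averaged over the 12 libraries, RHAG stood at 196 FPKM, GYPC at 173, GYPB at 109, EPB41 at 69.4, ANK1 at 35.3, SPTB at 24.5 and TMCC2 at 6.03. The library ranges of RHAG and GYPC overlapped, as did those of GYPC and GYPB, GYPB and EPB41, and ANK1 and SPTB. EPB41, at 50.5 to 79.8 FPKM, was above ANK1, at 25.2 to 47.3, in every library, and TMCC2, at 1.70 to 12, was below SPTB, at 16.6 to 30.9. Across the 12 libraries, which share their replicate numbers and depth, log2 levels of GYPB and RHAG had a Pearson r of 0.91, GYPC and SPTB 0.91, and ANK1 and TMCC2 -0.82, given as descriptions.

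The loci most like each gene were sought among 11838 single-name loci with a mean of at least 5 FPKM, by Pearson r over the 12 libraries. For TMCC2 they were TRIM56 (0.98), EIF2AK2 (0.97) and B4GALT5 (0.97). TRIM56 averaged 8.96 FPKM in control and 14.1 in TNF, and 11.5 in SG and 17.4 in TNFSG, the same order as TMCC2. For ANK1 they were ICE1 (0.99), KCNH2 (0.98) and NIP7 (0.98), and for EPB41 ANKRD11 (0.97), AIFM1 (0.97) and ERI3 (0.97). For RHAG they included FH (0.97) and WRN (0.96). For GYPB they were LAMTOR5 (0.96), VIL1 (0.96) and WBSCR22 (0.94), for GYPC PSMC3 (0.95), EEF1D (0.94) and CYC1 (0.93), and for SPTB COL23A1 (0.94), CYC1 (0.93) and OPLAH (0.93).

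A wider list of 48 other red-cell membrane and skeleton genes set these genes beside their pathway, and 46 were analysed; SLC4A1, the band 3 gene, and ACKR1 were not analysed here. In TNF against control 1 of 46 rose and 0 fell, beside 1.45% of all tested loci called, and in TNFSG against SG 2 rose and 0 fell, beside 1.64%. In the mean TNF effect 5 rose and 2 fell, beside 4.38%, with a list median of -0.06 against -0.03 for all loci. Neither SG against control nor TNFSG against TNF called any of the 46 in limma, and the mean SG effect called 1, which rose, beside 1.11% of loci. At an unadjusted p under 0.05 there were 14 of 46 in TNF against control, where all loci gave 11.2%, 18 in TNFSG against SG (11.4%) and 20 in the mean TNF effect (15.9%). For the transfection 5 of 46 passed it in SG against control (9.86%), while TNFSG against TNF had 2 (9.11%) and the mean SG effect 7 (14.6%).

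ACHE, acetylcholinesterase, which red cells carry on a lipid anchor as the Yt blood group, changed most. It stood at 1.02, 0.70 and 1.08 FPKM in control and 12.5, 7.14 and 9.69 in TNF. In SG it stood at 1.23, 1.54 and 1.35, and in TNFSG at 12.6, 9.12 and 9.25. Every TNF-treated library was above every untreated one. Its mean TNF effect was 2.35 (SE 0.14; limma adjusted p = 1.21e-05), and it was called in both TNF comparisons.

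SLC29A1, a nucleoside transporter, averaged 37.3 ± 1.81 FPKM in control and 48.8 ± 2.70 in TNF, and 45.8 ± 3.97 in SG and 62.6 ± 4.23 in TNFSG. Its call in TNFSG against SG (0.44, limma adjusted p = 0.0287) was lost in 7 of 12 fits that left out 1 library. Its mean TNF effect was 0.41 (SE 0.06, limma adjusted p = 0.0034), and its mean SG effect 0.32 (limma adjusted p = 0.0391). The mean SG call was lost in 3 of 8 alternatives that kept every library and in 10 of 12 fits that left out 1. ABCG2, an efflux transporter that carries the Junior blood group, averaged 6.05 ± 2.2 FPKM in control and 13.2 ± 3.07 in TNF, with 6.85 ± 2.04 in SG and 14.8 ± 2.86 in TNFSG. Its mean TNF effect was 1.03 (SE 0.21; limma adjusted p = 0.0233), lost in 6 of 12 such fits.

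The smaller calls lay near the threshold and were lost in most fits that left out 1 library, whichever it was. ADD3, an adducin, had a mean TNF effect of 0.30 (limma adjusted p = 0.0375), lost in 11 of 12 fits, and CD59, an inhibitor of complement lysis, of 0.20 (limma adjusted p = 0.0446), lost in 11 of 12. KCNN4, the Gardos potassium channel, fell by 0.68 (limma adjusted p = 0.0356), lost in 10 of 12. SLC43A1, an amino acid transporter named here after its values were seen, fell by 0.29 (limma adjusted p = 0.0473), lost in 11 of 12. Of the 8 alternatives that kept every library, the ADD3 call was lost in 1, CD59 in 3, KCNN4 in 0 and SLC43A1 in 4. The 4 most abundant genes of the list not already named as called were BSG at 604 FPKM over all libraries, TFRC at 229, TPM3 at 213 and PIEZO1, a mechanosensitive channel, at 125; none was called.

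**Figure D5:**
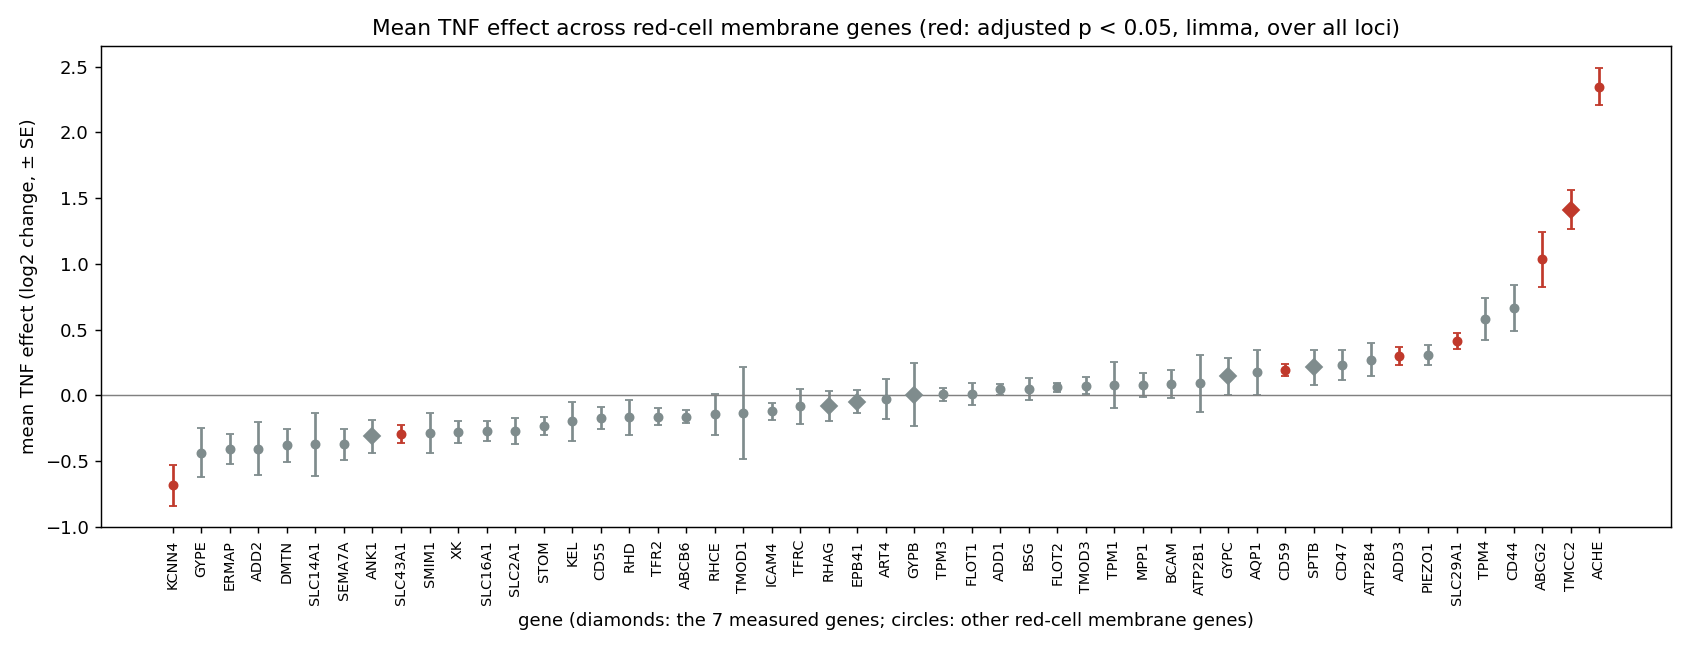
Mean TNF effect (log2 change of FPKM + 1, y axis, with SE) of the 7 genes (diamonds) and 44 of the 46 other red-cell membrane genes (circles), ordered by size along the x axis; red marks a limma adjusted p under 0.05. ACHE at 2.35 and TMCC2 at 1.41 are the highest, and most of the others lie within 0.5 of 0.

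Relatives of these genes used outside red cells were checked as a list of 18, of which 15 were analysed. None was called in a TNF comparison or in either pairwise comparison of the transfections, by limma. Unadjusted p-values were under 0.05 for 1 in TNF against control, 2 in TNFSG against SG, 3 in SG against control and 4 in TNFSG against TNF, of 15 each, where the shares over all loci are the 11.2%, 11.4%, 9.86% and 9.11% given above. The mean SG effect called 2 of 15, beside 1.11% of all loci, both higher: SPTBN4, a spectrin of nerve and muscle, by 0.91 (limma adjusted p = 0.0364), and EPB41L1, a neuronal relative of protein 4.1, by 0.81 (limma adjusted p = 0.0463). These calls were lost in 11 and 12 of 12 fits that left out 1 library, and in 1 of 7 and 5 of 8 alternatives that kept every library. The most abundant relatives by mean level were RHBG, EPB41L2, SPTBN1 and TGM2, and EPB41L2 was listed at 0 in TNFSG replicate 1 and at 98.7 FPKM or more in the other libraries.

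Of 12 erythroid regulators, 11 were analysed, and the mean TNF effect called 4 that fell and 1 that rose, beside 4.38% of all loci. The list median was -0.42 and that of all loci -0.03. NFE2, a partner of the small MAF proteins at erythroid enhancers, fell from 99.1 ± 3.60 FPKM in control to 50.0 ± 6.87 in TNF, and its mean TNF effect was -1.07 (SE 0.09; limma adjusted p = 0.00017). KLF1, the erythroid Kruppel-like factor, had a mean TNF effect of -0.62 (limma adjusted p = 0.00912), LYL1 of -0.69 (limma adjusted p = 0.00662) and ZFPM1, the GATA1 cofactor FOG1, of -0.55 (limma adjusted p = 0.0204). The ZFPM1 call was lost in 5 of 12 fits that left out 1 library. MYB, a factor of immature progenitors, rose by 0.54 (limma adjusted p = 0.0015). The calls of NFE2, KLF1, LYL1 and MYB in this average held in all 12 such fits. The most abundant regulators not called were GFI1B, GATA1, LMO2 and LDB1. None of the 6 membrane genes analysed passed the threshold in the same average, and whether the regulators' changes bear on the membrane genes was not tested.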

How the data were processed

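RNA from 12 K562 libraries in 4 groups of 3 was sequenced in single reads of 50 bases, per the labels' protocols. Reads were mapped to hg38 by the authors, with TopHat2 2.0.14 and Bowtie2 2.2.9 and then Cufflinks named in the submitters' processing notes. For the annotation release and the use of strand, the sources used here give nothing. The deposited values are FPKM per locus, used as deposited; 9035 loci have no gene name.

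The log2 of FPKM + 1 was tested for the 32866 loci that reached 1 FPKM in 3 or more of the 12 libraries. limma 3.58.1 in R 4.3.3 fitted 1 mean per group over all libraries (eBayes with trend, two-sided, Benjamini-Hochberg over all loci, threshold 0.05). The model was tried on simulated data with independent noise and no replicate effect. Changes were placed only in loci with a mean log2 level over 3, above those of TMCC2 and NUAK2. That trial does not bear on replicate effects or on such low loci. FPKM do not give read totals, so the depth behind a value is unknown.

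The genes and lists were chosen with earlier results of these data known. Every listed gene is named. Of each other list, called loci (at most 6 by lowest p) and up to 4 more of highest mean FPKM are named, with the neighbours of TMCC2, TMCC1 and TMCC3 always, and the 3 loci most like each gene. A few genes under this rule are not reported here. COL1A1, COL1A2, DCN, NKG7, KRT19 and EPCAM were named after their values were seen. Lost calls are counted over the 12 fits that each left out 1 library, unless other alternatives are named.

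Same-numbered libraries of different groups had correlations of their deviations from the group means between 0.0065 and 0.138, with 1 of 18 pairs over 0.1. Differently numbered libraries had -0.093 to 0.043 over 36 pairs, so same-numbered ones were somewhat more alike. The labels do not state a shared batch, and the main fit has no replicate term. A replicate block, fitted as an alternative, lowered some SEs, for GYPB in TNF against control from 0.34 to 0.10. In the same comparison it lowered that of RHAG from 0.16 to 0.06, of GYPC from 0.20 to 0.11 and of SPTB from 0.19 to 0.12.

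The alternatives were pseudocounts of 0.1 and 0.5, no filter, a filter of 5 FPKM, quantile normalization, median-ratio scaling, no trend in limma, a fit on the compared groups alone, the replicate number as a block, and leaving out single libraries. Leaving out replicate 1 in every group was chosen after seeing the data. Promoter windows come from RefSeq and gene positions from GENCODE 29. Python 3.11.15, numpy 2.4.6, pandas 2.3.3 and matplotlib 3.10.9 were used.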

Additional observations from a re-analysis of the deposited data

How the results depend on the processing

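TMCC2 kept its rise with TNF under every alternative, and its calls in TNFSG against SG and in the mean TNF effect held under every alternative run. Its call in TNF against control was lost with only those groups in the fit (1.32), without replicate 1 in every group (1.10, which leaves 0 of the 7 genes called) and without control replicate 2 or 3. Leaving out 1 library gave changes of 1.05 to 1.52 and 0 to 1 genes called there. For the mean SG effect 0 to 1 of the 7 were called without 1 library, 1 with a filter of 5 FPKM and 1 with the replicate number as a block. The interaction for TMCC2 ran from -0.016 to 0.45 without 1 library.

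Sign changes concerned small differences that no fit called. Of 931 changes of the 7 genes under the alternatives, 868 kept direction and call, 4 lost a call, 3 gained one and 56 changed sign, with a limma adjusted p of 0.526 or more each time. Of the 56, 37 were in pairwise changes of the 6 membrane genes that are plotted and not printed above, and no change that switched sign was larger than 0.29 with all libraries. Among the averages given above, leaving out 1 library moved the mean TNF effect of GYPB from -0.14 to 0.16 and of EPB41 from -0.10 to 0.022. It moved the mean SG effect of GYPC from -0.13 to 0.040, of RHAG from -0.016 to 0.12 and of SPTB from -0.042 to 0.12. The SPTB value was -0.015 after quantile normalization and -0.091 without replicate 1 in every group. Other averages kept their sign but moved: the mean TNF effect of GYPC ran from 0.036 to 0.23, of RHAG from -0.14 to -0.0037 and of SPTB from 0.12 to 0.31, and the mean SG effect of ANK1 from -0.30 to -0.15. EPB41 ran from 0.15 to 0.33 in SG against control and from 0.14 to 0.36 in TNFSG against TNF. The cause was not tested.

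Counts over the 46 other membrane genes moved more. TNF against control called 2 with a filter of 5 FPKM and 2 without replicate 1 in every group, against 1. TNFSG against SG called 1 without the trend, 1 with only those groups in the fit, and 1 to 2 without 1 library. The mean TNF effect called 4 without the trend and 2 to 7 without 1 library.

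The replicate number as a block was fitted as an alternative. By deviations from the group means, 6 of 12 libraries correlated best with their own number in every other group. The labels do not say whether equal numbers share a batch, and this was not tested. With the replicate block 831 loci were called in TNF against control, 843 in TNFSG against SG, 2104 in the mean TNF effect and 938 in the mean SG effect, beside 478, 540, 1441 and 365 without it. Under the block the 46 genes gave 3, 7 and 17 calls in TNF against control, TNFSG against SG and the mean TNF effect, and the mean SG effect called 1 of the 7 genes, TMCC2 (0.66, limma adjusted p = 0.0476). The EPB41L1 call was lost under the block, and no other call named above was. Total read depth is unknown, which limits what can be said of genes near 1 FPKM such as NUAK2 in control.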
